A study of Mus musculus with 8 samples.

Results

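The 10 genes described here are the 4 kinases that phosphorylate the translation initiation factor eIF2 (Eif2ak1, Eif2ak2, Eif2ak3 and Eif2ak4), the transcription factor Atf4 that their activity brings into play, and 5 genes of its pathway (Atf3, Ddit3, Trib3, Asns and Sesn2). They were chosen by name, and every probe set that the platform annotation pairs with 1 symbol, that of a member, was taken. This gave 25 probe sets of 10 genes, out of 34945 probe sets of 18193 genes with a single symbol and 45101 probe sets in all. Affymetrix mouse arrays were hybridised with total RNA of uncultured E14.5 fetal livers, 4 from wild-type embryos (WT, replicates 1 to 4) and 4 from EKLF knockout embryos (KO, Eklf-/-, replicates 2 to 5). EKLF, encoded by Klf1, is the erythroid Krüppel-like factor, a zinc finger protein that binds CACCC-type DNA and drives red cell differentiation. Per the study's methods the KO came from B6 lines homozygous for the knockout, made with a BAC carrying an engineered Eklf locus and with E2A-Cre mice, and no other allele or treatment was named for either group. Litter and sex of the embryos were not given, and p-values measure only the spread between these 8 arrays.

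The integrated stress response is the pathway in which phosphorylation of eIF2 lowers general protein synthesis while the translation of a few mRNAs, Atf4 above all, rises. Each kinase reads a different stress: HRI (Eif2ak1) responds to heme shortage and dominates in red cell precursors, PKR (Eif2ak2) to double-stranded RNA, PERK (Eif2ak3) to unfolded protein in the endoplasmic reticulum, and GCN2 (Eif2ak4) to uncharged tRNA. Atf4 is regulated largely at translation and the kinases by phosphorylation, neither of which an mRNA array measures, so the mRNA of Atf4 pathway targets is the usual transcript readout.

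The start regions of these genes are shown because the comparison sets kinases against Atf4 pathway targets, and Atf4 with its C/EBP partners is known to bind a composite element near the starts of such genes. All 10 members matched the RefSeq start windows (mouse build GRCm38.p6, 250 bases before to 50 after each annotated start), with 11 windows in all since Eif2ak4 has more than 1 start. Distances are counted from the first transcribed base as 0. In the 150 bases before the start of Eif2ak1 (chr5:143817642-143817791, plus strand), capitals mark 2 CACCC boxes and 1 match to the EKLF element, the kinds of DNA the deleted factor binds:
Eif2ak1: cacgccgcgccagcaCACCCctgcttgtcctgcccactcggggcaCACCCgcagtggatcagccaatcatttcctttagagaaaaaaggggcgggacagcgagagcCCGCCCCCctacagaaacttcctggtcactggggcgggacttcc

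In the same stretch of Atf3 (chr1:191183334-191183483, minus strand) and Asns (chr6:7693210-7693359, minus strand), capitals mark the C/EBP-ATF composite element, on the opposite strand in Atf3:
Atf3: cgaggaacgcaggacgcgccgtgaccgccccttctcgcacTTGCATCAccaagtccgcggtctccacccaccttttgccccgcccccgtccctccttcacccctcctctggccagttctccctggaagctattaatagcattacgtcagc
Asns: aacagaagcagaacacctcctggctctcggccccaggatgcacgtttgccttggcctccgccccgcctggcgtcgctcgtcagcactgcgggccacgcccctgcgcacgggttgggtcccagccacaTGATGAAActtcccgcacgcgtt

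The same element, in capitals, lies just past the start of Trib3 (chr2:152344028-152344057, minus strand) and before the starts of 3 further genes of the pathway lists used below, Chac1 (chr2:119351038-119351067, plus strand), Vldlr (chr19:27216809-27216838, plus strand) and Slc7a11 (chr3:50443652-50443681, minus strand, with 2 matches), which were picked for print after their values were seen:
Trib3: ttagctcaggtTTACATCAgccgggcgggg
Chac1: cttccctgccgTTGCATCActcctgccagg
Vldlr: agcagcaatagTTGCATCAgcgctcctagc
Slc7a11: gcTGATGCAAacctggagaatTTGCATCAt

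Among the kinases, Eif2ak2 alone held an interferon-stimulated response element, in capitals in 30 bases just past its start (chr17:78882535-78882564, minus strand):
Eif2ak2: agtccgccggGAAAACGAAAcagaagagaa

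Each motif was searched on both strands: TGATGNAA for the composite element, CCNCNCCC for the EKLF element, CACCC for the box, and GAAA, 2 bases of any kind and GAAA again for the interferon element. The EKLF element and the box can overlap. The composite element was present in 3 of the 11 member windows, against 3.97% of all 32851 windows. These 3 (Atf3, Trib3 and Asns) belong to 5 targets, and 0 of the 5 kinase windows held it. Of the 26 tested genes of the amino acid and the Atf4 and Ddit3 programme lists with a start window, 8 held it (30.8%, against 4.51% of all genes), Herpud1, Jdp2, Nupr1, Pck2 and Slc1a4 beside the 3 printed. The EKLF element was present in 9 of 11 member windows (81.8%) against 49.5% of all windows, and the box in 8 of 11 (72.7%) against 57.5%. Base composition was not matched in these shares, and a match is a description of the letters, not of a bound site.

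**Figure D1:**
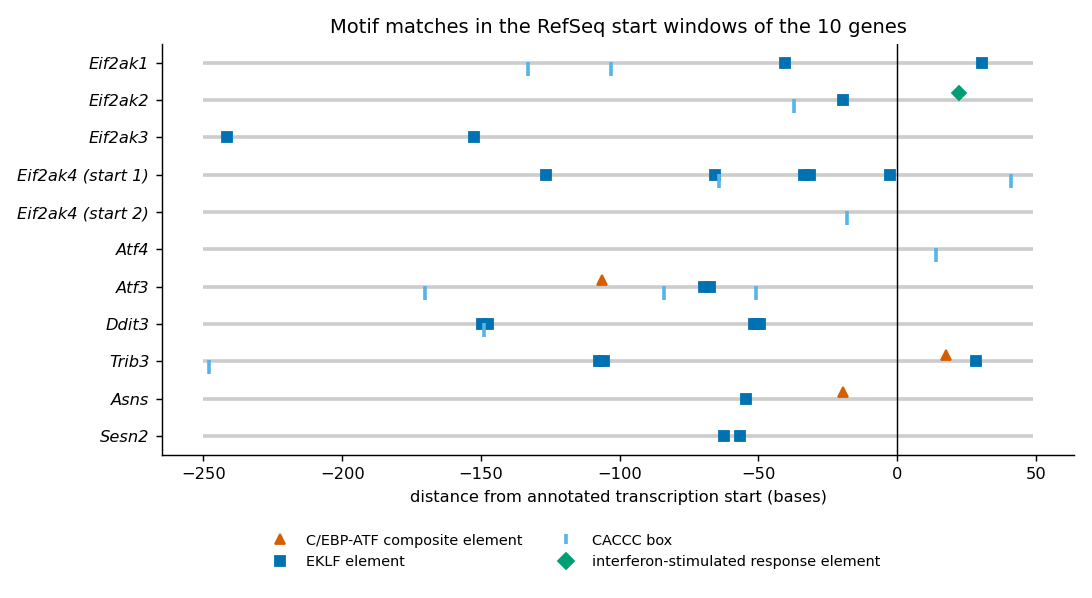
Position of each motif match (symbols, by motif) in the RefSeq start windows of the 10 genes, in bases from the annotated start (vertical line). Triangles mark the composite element in Atf3, Trib3 and Asns, and the diamond marks the interferon element of Eif2ak2.

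The array values are MAS5.0 signals, given below as log2. A probe set was tested where the WT or the KO mean lay above a signal of 100 (6.64 in log2), and was called where limma's adjusted p across all 23379 tested probe sets was under 0.05. Of the 25 member probe sets, 20 passed this minimum, and a probe set that passes only through its KO arrays is bound to read higher in KO, so the counts below are descriptions. This holds for 4 of them, 1443235_at of Eif2ak4, 1449363_at of Atf3 and both of Sesn2. Klf1 itself fell from 13.95 ± 0.08 to 10.65 ± 0.11 (SD, n = 4 each; exact permutation p = 0.029, two-sided, the smallest that 4 against 4 arrays allow), and its remaining signal was well above the minimum. Where the deletion lies relative to these probes was not stated. Arrays of one group correlated at 0.956 to 0.978 and arrays of different groups at 0.859 to 0.909 (Pearson's r across probe sets). Sample titles share a code within each genotype and differ in it between genotypes, and what the code marks was not stated, so anything that goes with it cannot be told apart from genotype. Hybridisation controls were 0.75 lower in KO, and the median difference over all tested probe sets was 0.17 as deposited, −0.033 after quantile normalization, −0.12 after scaling to the 75th percentile and 0.95 after scaling to the hybridisation controls. The 3′ less 5′ signal of the Actb control, a sign of RNA quality, was 0.85 in WT and 0.55 in KO (exact permutation p = 0.029, two-sided), and that of Gapdh differed by −0.03 (p = 0.4). WT 1 was the only array with high Xist and low Eif2s3y and Kdm5d, and all member calls held without it.

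In KO livers 12 of the 20 tested member probe sets rose, 2 fell and 6 were not called, on an array where 52.2% of tested probe sets were called, 34.4% higher and 17.7% lower. By gene, 7 of the 10 members were called higher only (35.2% of 11292 tested genes were), 1 was called in both directions (2.99%), 0 were called lower only (21.2%), and 2, Atf4 and Asns, were not called. The genes called higher only were Eif2ak2, Eif2ak3, Eif2ak4, Atf3, Ddit3, Trib3 and Sesn2. The KO arrays all lay above the WT arrays in 12 member probe sets (32.4% of all tested) and all below in 2 (17.4%). The first 12 were not quite the 12 called higher, since 1451095_at of Asns stood apart without a call and 1451599_at of Sesn2 was called with an overlap. With the methods' t-test at their own unadjusted threshold, 8 members were called higher only (34.8% of all tested genes) and 1 in both directions (3.43%), and after Benjamini-Hochberg adjustment 6 were called higher only (28.4%). Under hybridisation control scaling all 10 members were called higher only.

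**Figure D2:**
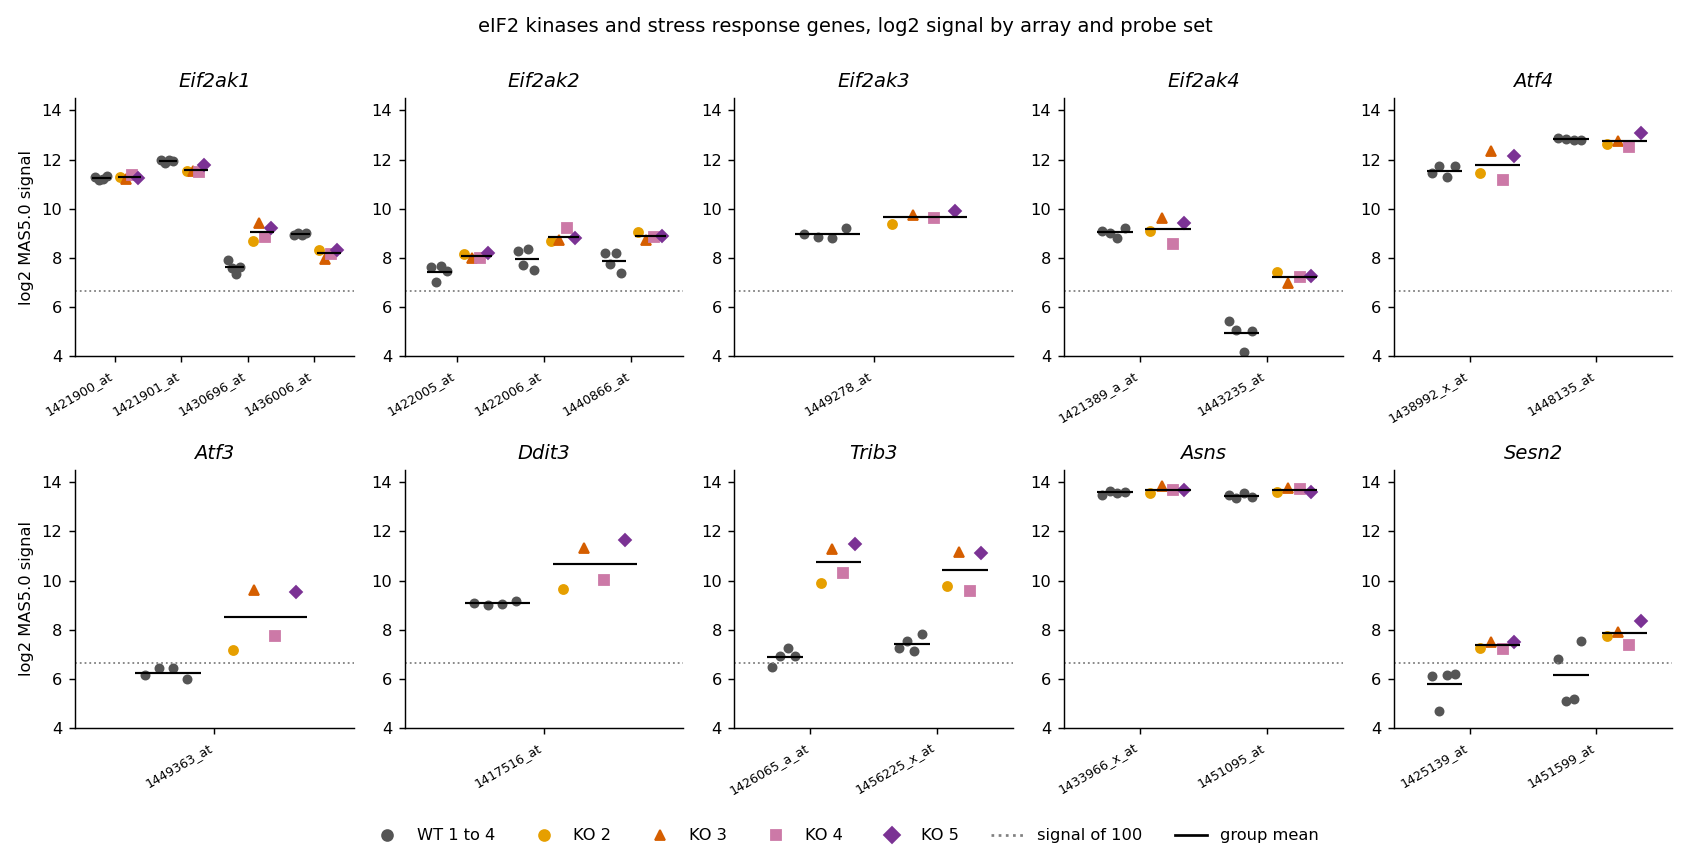
The log2 MAS5.0 signal of every tested member probe set in each array, with WT arrays in grey, each KO array in its own colour and symbol, and group means as bars. KO 3 and KO 5 lie above KO 2 and KO 4 for Atf3, Ddit3 and Trib3, while Asns differs little between groups.

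Eif2ak1, the heme-regulated kinase HRI, was called lower on 2 of its probe sets and higher on 1. On its brightest, the tested probe set with the highest mean over the 8 arrays, 1421901_at, the WT arrays read 12, 11.85, 11.97 and 11.96 and the KO arrays 11.53, 11.56, 11.50 and 11.78. All KO arrays lay below all WT arrays, a difference of −0.35 (SE 0.10, adjusted p = 0.018, limma, 1.27-fold lower), which turned to 0.40 (adjusted p = 0.021) when arrays were scaled to the hybridisation controls. Probe set 1436006_at read 8.92, 9.02, 8.93 and 9.02 in WT against 8.32, 7.96, 8.15 and 8.33 in KO, lower by 1.72-fold (−0.78, SE 0.11, adjusted p = 0.00056), but at −0.035 and not called under hybridisation control scaling. Probe set 1430696_at went the other way, with 7.91, 7.59, 7.36 and 7.62 in WT and 8.68, 9.44, 8.84 and 9.21 in KO. It was 2.69-fold higher (1.43, SE 0.19, adjusted p = 0.00039) with no overlap between groups. Probe set 1421900_at overlapped throughout, at 11.31, 11.19, 11.23 and 11.32 in WT and 11.29, 11.20, 11.39 and 11.27 in KO (0.026, 95% interval −0.18 to 0.24, adjusted p = 0.83), but was called higher under hybridisation control scaling (0.77, adjusted p = 0.00081). The remaining 1453902_at was dim in both groups and was not tested. The direction read for Eif2ak1 mRNA thus depended on the probe set, and where each lies along the transcript was not used here. The part of the Actb 3′ less 5′ difference between groups in these values was not tested. The call on 1421901_at was lost under quantile normalization (−0.21, adjusted p = 0.12), poly-A control scaling (−0.44, adjusted p = 0.061), with no filter (adjusted p = 0.073) and without KO 2 and KO 4 (−0.27, adjusted p = 0.069).

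The fall on the brightest probe set stood beside a fall of erythroid markers: 4 of 5 tested were lower and 1 higher (the embryonic globin Hbb-bh1), with a median difference of −1.07. Over all genes, 21.0% were called lower and 25.6% higher on the brightest probe set. The summed signal of the erythroid markers was 68755 to 74408 over the WT arrays and 33251 to 43104 over the KO arrays. In bulk tissue fewer cells of a type and less RNA per cell cannot be told apart, and the part of this shift in the Eif2ak1 values was not tested. Taking 1 tested probe set a gene, those that tracked 1421901_at most closely over the 8 arrays were Kat2b (Pearson's r = 0.977), Xpo7 (0.977), St3gal5 (0.977), Leprot (0.975) and Pcgf5 (0.975). Their KO minus WT differences were −0.45 for Kat2b, −0.46 for Pcgf5, −0.73 for Leprot and −0.84 for St3gal5, while Xpo7, whose KO arrays were all below the signal minimum, was at least 2.19-fold lower. These r values share the gap between the 2 groups of arrays and are given as descriptions.

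Eif2ak2, the RNA-sensing kinase PKR, rose on all 3 of its probe sets. On 1422006_at the WT arrays read 8.28, 7.70, 8.37 and 7.51 and the KO arrays 8.71, 8.74, 9.24 and 8.81, with every KO array the higher (0.91, SE 0.22, adjusted p = 0.0078, 1.88-fold). Probe set 1440866_at ran from 7.40 to 8.21 in WT and from 8.74 to 9.05 in KO (0.99, SE 0.19, adjusted p = 0.0026), and 1422005_at from 7.02 to 7.68 in WT and from 8 to 8.22 in KO (0.65, SE 0.15, adjusted p = 0.0075). The KO arrays were close together while the WT arrays were split, WT 2 and WT 4 reading below WT 1 and WT 3 on each of the 3 probe sets. Eif2ak2 is itself interferon-inducible, and of 9 tested interferon-stimulated genes 6 were called higher (25.6% of all genes were on their brightest probe set) and 0 lower, with a median of 0.94. The largest fitted differences were those of Ifit1, which binds foreign RNA (6.39 ± 0.29 in WT, below the signal minimum, and 7.70 ± 0.37 in KO, SD, n = 4; at least 2.08-fold), and Rsad2, the antiviral enzyme viperin (1.18, SE 0.33, adjusted p = 0.016). Stat2, a transcription factor of the interferon pathway, chosen after its values were seen, was 2.19-fold higher (1.13, adjusted p = 7e-05). The 6 calls became 3 under quantile normalization, under 75th percentile scaling and without WT 2, WT 4 or KO 5, each time with Ifit3, Irf7 and Usp18 lost, and 2 without KO 3 and KO 5, where Rsad2 was lost too (0.66, adjusted p = 0.11). The medians of this list, taken from the WT mean, were 0.25, −0.38, 0.47 and −0.27 in WT 1 to WT 4, so WT 2 and WT 4 were also the lower WT arrays here. Under quantile normalization 2 of the 3 Eif2ak2 calls were lost, 1422006_at at 0.59 (adjusted p = 0.055) and 1422005_at at 0.23 (adjusted p = 0.26). The call on 1422005_at was also lost under 75th percentile scaling (0.39, adjusted p = 0.062) and poly-A control scaling (0.56, adjusted p = 0.052).

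Eif2ak3, the endoplasmic reticulum kinase PERK, rose by 1.62-fold on 1449278_at, the single one of its 3 probe sets above the signal minimum. The WT arrays read 8.99, 8.86, 8.82 and 9.22 and the KO arrays 9.38, 9.74, 9.62 and 9.93, without overlap (0.69, SE 0.15, adjusted p = 0.0043).

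Eif2ak4, the amino acid sensing kinase GCN2, was not called on its brightest probe set 1421389_a_at, where WT read 9.11, 9.03, 8.81 and 9.24 and KO 9.08, 9.62, 8.59 and 9.42 (0.13, 95% interval −0.36 to 0.63, adjusted p = 0.63; 0.88 and called under hybridisation control scaling). Here KO 3 and KO 5 were above all WT arrays and KO 4 below them. Probe set 1443235_at read 5.46, 5.09, 4.19 and 5.03 in WT, all below the signal minimum, and 7.42, 6.98, 7.24 and 7.27 in KO. It was at least 1.5-fold higher, counted against a signal of 100 (fitted difference 2.29, adjusted p = 0.00013), and it is through this probe set that Eif2ak4 counts among the genes called higher.

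Over the kinases, 6 of 10 tested probe sets were called higher and 2 lower, both of them of Eif2ak1. Of all tested probe sets, 34.4% were called higher and 17.7% lower. The median difference of the 4 brightest kinase probe sets was 0.41, where the brightest probe sets of all genes had a median of 0.06.

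**Figure D3:**
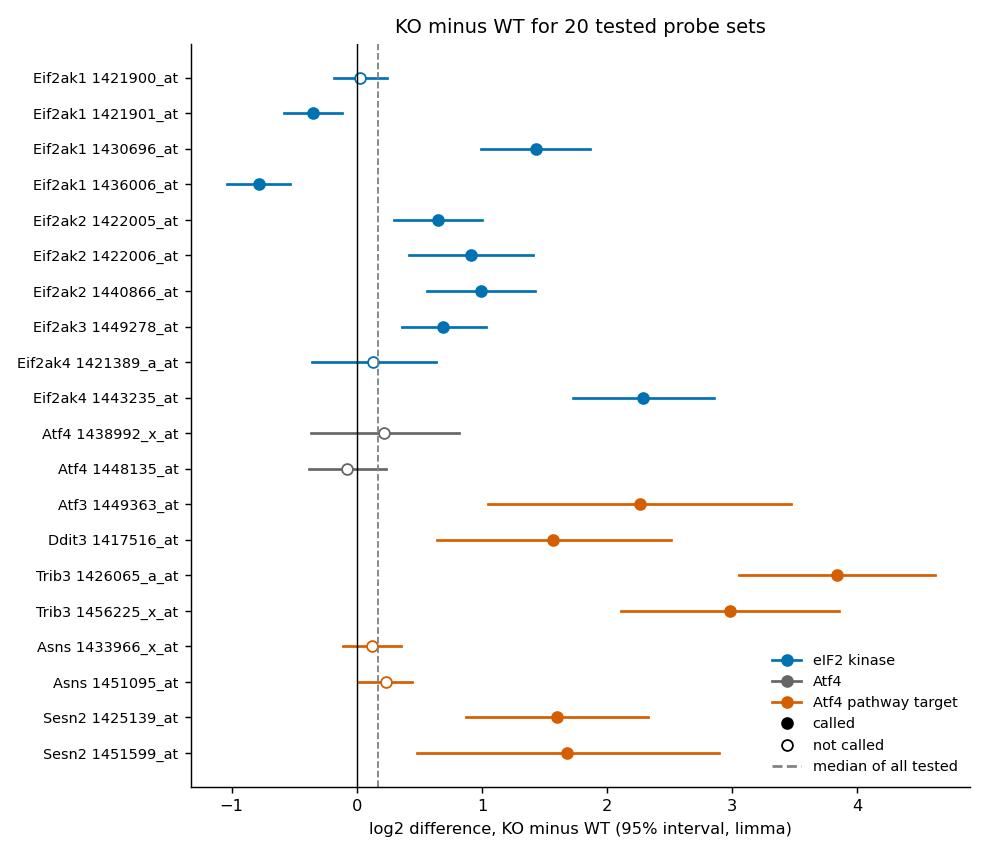
KO minus WT in log2 for the 20 tested member probe sets, with limma's 95% intervals, filled where called, and the median of all tested probe sets (0.17) as a dashed line. Probe sets of Eif2ak1 lie on both sides of 0, the Atf4 and Asns intervals lie near 0, and those of Trib3 lie farthest to the right.

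The mRNA of Atf4, the transcription factor through which the response reaches its target genes, was not called in either direction. Probe set 1448135_at read 12.87, 12.86, 12.79 and 12.79 in WT and 12.63, 12.76, 12.52 and 13.10 in KO, so that the KO arrays lay on both sides of the WT arrays (−0.075, 95% interval −0.38 to 0.23, adjusted p = 0.66). Probe set 1438992_x_at, of a type that may also bind related transcripts, read 11.45, 11.73, 11.29 and 11.75 in WT and 11.45, 12.34, 11.17 and 12.16 in KO (0.22, 95% interval −0.37 to 0.82, adjusted p = 0.49). On both, KO 3 and KO 5 were the higher KO arrays. Without KO 2 and KO 4 the second probe set was called (0.69, adjusted p = 0.014) and the first was not (0.10, adjusted p = 0.49), while without KO 3 and KO 5 neither was called (−0.24 for the second and −0.25 for the first). Under hybridisation control scaling both were called higher (0.97 for the second and 0.67 for the first).

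Of the 5 targets, 4 rose and they did so to a very different extent. Trib3, a pseudokinase that is induced by Atf4 and Ddit3 and dampens Atf4 activity, had the largest difference. On 1426065_a_at the WT arrays read 6.50, 6.93, 7.26 and 6.95 and the KO arrays 9.91, 11.27, 10.32 and 11.48, a 14.3-fold rise (3.84, SE 0.35, adjusted p = 5.2e-05). On 1456225_x_at it read 7.25, 7.55, 7.12 and 7.84 in WT and 9.79, 11.16, 9.59 and 11.12 in KO, a 7.88-fold rise (2.98, SE 0.38, adjusted p = 0.00032). The groups were far apart on both, and the lowest KO array stood above the highest WT array by more than the whole range of the WT arrays.

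Ddit3 (CHOP), the transcription factor that links lasting stress to cell death, read 9.10, 9.01, 9.06 and 9.18 in WT and 9.66, 11.31, 10.01 and 11.66 in KO on 1417516_at. It rose 2.98-fold (1.57, SE 0.41, adjusted p = 0.012), and the KO arrays spread far more (SD 0.97) than the WT arrays (SD 0.07). Its other probe set, 1443897_at, was dim and was not tested. Atf3, a stress-induced bZIP factor downstream of Atf4, read 6.17, 6.44, 6.44 and 6 in WT, below the signal minimum, and 7.17, 9.62, 7.75 and 9.55 in KO on 1449363_at. It was at least 3.68-fold higher (fitted difference 2.26, SE 0.53, adjusted p = 0.0071). For both genes the groups did not overlap, and KO 3 and KO 5 were more than 1 log2 unit above the other KO arrays. With the methods' t-test after Benjamini-Hochberg adjustment both calls were lost (adjusted p = 0.092 for Ddit3 and 0.073 for Atf3).

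Sesn2, which encodes a leucine-binding inhibitor of mTORC1 signalling, rose on both probe sets. On 1425139_at the WT arrays read 6.10, 4.68, 6.15 and 6.20 and the KO arrays 7.27, 7.52, 7.22 and 7.52, at least 1.67-fold higher (fitted difference 1.6, adjusted p = 0.0034). On 1451599_at WT ran from 5.11 to 7.53 and KO from 7.38 to 8.34, at least 2.31-fold higher (fitted difference 1.68, SE 0.53, adjusted p = 0.026), and WT 4 overlapped the KO arrays. This second call was lost without WT 2 (adjusted p = 0.063), WT 3 (0.065), KO 3 (0.058) or KO 5 (0.068).

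Asns, the asparagine synthetase that is a classic gene of the amino acid response, was not called. On 1451095_at the WT arrays read 13.47, 13.37, 13.55 and 13.41 and the KO arrays 13.62, 13.76, 13.71 and 13.62, all above WT by a small amount (0.23, 95% interval 0.02 to 0.44, adjusted p = 0.064). On 1433966_x_at the groups overlapped, from 13.49 to 13.65 in WT and from 13.56 to 13.86 in KO (0.12, 95% interval −0.11 to 0.35, adjusted p = 0.35). The Asns direction followed the scaling. Both probe sets were called higher under quantile normalization (0.60 and 0.50, adjusted p = 0.0011 and 0.0066) and under hybridisation control scaling (0.98 and 0.87). Neither was called, at −0.034 and −0.15, under 75th percentile scaling. At the deposited scaling the Asns call depended on the test. Probe set 1451095_at was called higher with the methods' t-test, both unadjusted and after Benjamini-Hochberg adjustment (0.23, adjusted p = 0.019). It was also called with limma's trend and robust options (adjusted p = 0.017), while 1433966_x_at was not called with any of these tests.

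The question posed of these members was whether the kinases and the Atf4 pathway targets differed between genotypes to a like extent. Over the targets 6 of 8 tested probe sets were called higher and 0 lower, where 34.4% of all tested probe sets were called higher and 17.7% lower. Among the 6, those of Atf3 and Sesn2 passed the signal minimum only through their KO arrays and were bound to read higher. The median difference of the 5 brightest was 1.68, the fitted value of Sesn2 1451599_at, and it exceeded that of the kinases by 1.27. Array by array, the target median lay above the kinase median in each KO array, by 0.69 in KO 2, 1.55 in KO 3, 1.11 in KO 4 and 1.96 in KO 5, while in the WT arrays this gap ran from −0.14 to 0.17. The target median was that of Ddit3 in KO 3 and KO 5, but of Atf3 in KO 2 and of Sesn2 in KO 4. Atf3 and Sesn2 had WT means below the signal minimum (6.26 and 6.17). The KO 2 and KO 4 gaps are therefore smaller when counted against a signal of 100. The gap between the target and kinase medians came from Trib3, Atf3, Sesn2 and Ddit3, since Asns was within the range of the kinases. It stayed between 1.15 and 1.66 when single arrays were left out, and was 1.04 without KO 3 and KO 5, 1.75 without KO 2 and KO 4 and 0.87 with the mean of a gene's tested probe sets. With Atf3 and Sesn2 taken at their bounds against a signal of 100, the median target is Ddit3, at 1.57, beside 0.41 for the kinases. No p is given for a score over members chosen with results of these data known.

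The KO arrays did not form a uniform group for the targets. Target medians, taken from the WT mean, were 0.91 in KO 2 and 1.22 in KO 4, and 2.22 in KO 3 and 2.57 in KO 5. Those of KO 2 and KO 4 were the values of Atf3 and Sesn2, whose WT means lay below the signal minimum. KO 3 and KO 5 both lay above KO 2 and KO 4 in 6 of 8 target probe sets, in both of Atf4 and in 4 of 10 kinase probe sets, or 12 of 20 in all, against 26.8% of all tested probe sets (29.2% had KO 3 and KO 5 both below). Hspa1b, which encodes an inducible heat shock protein, was split in the same way, with 10.78 in KO 2, 11.47 in KO 4, 13.08 in KO 3 and 12.93 in KO 5 against 7.43 to 7.98 in WT. Among the marker lists, macrophage markers had a median from the WT mean of 0.41 in KO 5 and of −0.35 to −0.64 in the other KO arrays, and granulocyte markers of 1.59 in KO 5 and 0.12 to 0.29 in the others. KO 3 and KO 5 were on top in 6 of 8 macrophage and 5 of 7 granulocyte markers. The same held for 4 of 7 endothelial, 3 of 5 megakaryocyte, 1 of 5 erythroid and 1 of 6 hepatocyte markers. Stellate and mesenchymal markers stood at 1.04 in KO 3 and 0.90 in KO 5 against 0.76 in KO 2 and 0.34 in KO 4, with KO 3 and KO 5 on top in 5 of 7, and interferon-stimulated genes at 1.16 and 1.30 against 0.48 and 0.74, with KO 3 and KO 5 on top in 6 of 9. What sets these KO arrays apart was not tested. Without KO 3 and KO 5 all member calls remained except that of Sesn2 1451599_at (1.40, adjusted p = 0.17), but at smaller sizes for Ddit3 (0.75 against 1.57), Atf3 (a fitted 1.2 against 2.26) and Trib3 (3.21 and 2.25).

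**Figure D4:**
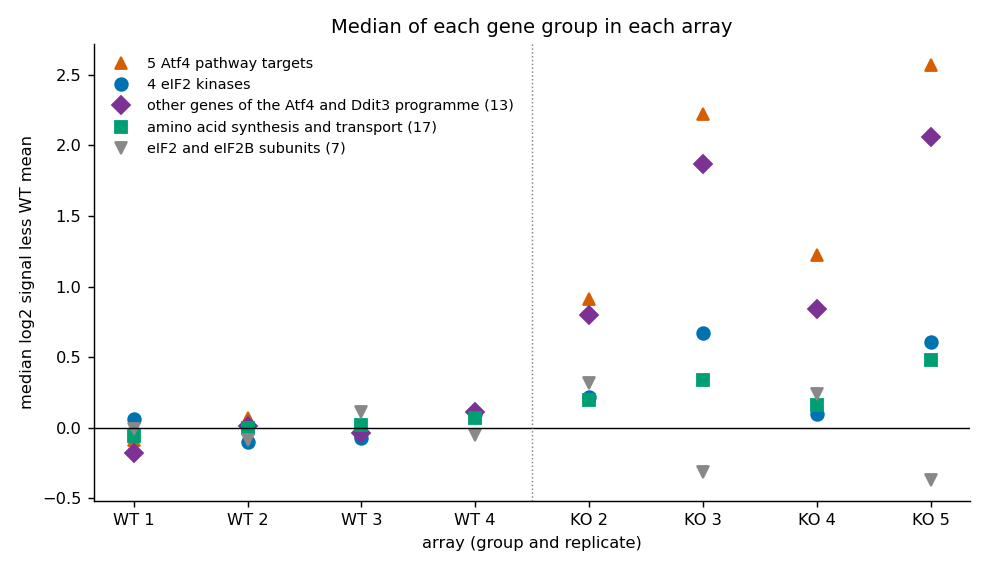
Median log2 signal of each gene group, less the WT mean, in each of the 8 arrays (1 probe set a gene). Targets and the other genes of the Atf4 and Ddit3 programme are highest in KO 3 and KO 5, and the eIF2 and eIF2B subunits are lowest there.

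The rest of the pathway was read on 4 lists with 48 tested genes, of which 26 were called higher, 7 lower and 15 not, with a median of 0.36. As deposited, 25.6% of all genes were called higher and 21.0% lower on the brightest probe set. Under hybridisation control scaling, where 97.2% of calls over all tested probe sets were higher, 42 were called higher and 1 lower. Under 75th percentile scaling, where 41.0% of all calls were higher, the counts were 16 and 12. These lists were chosen with earlier results of these data known.

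The 13 tested other genes of the Atf4 and Ddit3 programme had the highest median of the 4 lists, 1.45 (0.06 over all genes). Of them 10 were called higher (25.6% of all genes) and 0 lower (21.0%). In all 13 KO 3 and KO 5 were above KO 2 and KO 4 (26.8% of all tested probe sets). Stc2, called higher, had a WT mean of 6.61, passed the signal minimum only through its KO arrays and was bound to read higher. Ddit4, which encodes the mTORC1 inhibitor REDD1, read 8.26, 7.75, 8.18 and 8.61 in WT and 9.66, 11.58, 10.10 and 12.02 in KO, a 6.24-fold rise (2.64, SE 0.50, adjusted p = 0.0025). Vldlr, a lipoprotein receptor with the composite element printed above, ran from 7.82 to 8.19 in WT and from 9.87 to 11.32 in KO, a 5.96-fold rise (2.58, SE 0.30, adjusted p = 0.00019). Chac1, the glutathione-degrading enzyme whose element is also printed above, ran from 6.26 to 7.39 in WT and from 7.73 to 8.75 in KO (1.39, SE 0.29, adjusted p = 0.0041). Several of the list, Ddit4, Vldlr, Stc2 and Ero1a among them, are known to respond to low oxygen too, and the part of low oxygen in these values was not tested. The 3 that were not called were Nupr1 (WT mean 6.61, below the signal minimum, and KO mean 8.12, adjusted p = 0.058), Cebpg (0.19) and Gadd45a (0.0065).

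Amino acid synthesis and transport was divided, with 9 of 17 tested genes called higher, 3 lower and 5 not (median 0.31). The 9 became 5 under 75th percentile scaling, 6 without WT 1, WT 2, WT 4 or KO 5, and 4 without KO 3 and KO 5. Slc7a11, the cystine transporter subunit xCT, whose 2 composite elements are printed above, was at 3.26, 4.27, 1.36 and 5.47 in WT and 6.70, 7.30, 6.68 and 7.83 in KO. With all WT arrays below the signal minimum this was at least 1.4-fold (adjusted p = 0.0046), a smaller bound than the folds of Mthfd2 (1.86) and Slc1a4 (1.83). Slc7a3, a transporter of cationic amino acids, was at least 4.54-fold higher (6.47 ± 0.18 to 8.83 ± 0.59, SD, n = 4). Mitochondrial Mthfd2 and Shmt2 of one-carbon metabolism rose by 0.89 and 0.70. Against these, Slc1a5, the glutamine transporter ASCT2, fell 3.01-fold (10.93, 10.92, 10.99 and 10.78 in WT; 9.02, 9.48, 9.37 and 9.38 in KO; −1.59, adjusted p = 2.3e-05), and Psph, the last enzyme of serine synthesis, fell by 0.51. Slc7a1, the other gene called lower, fell by 0.50. Under hybridisation control scaling Psph (0.24, adjusted p = 0.11) and Slc7a1 (0.25, adjusted p = 0.13) turned positive and were not called.

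Among the phosphatase subunits and kinase modulators 6 of 11 were called higher and 2 lower (median 0.33). The 6 became 1 under 75th percentile and under poly-A control scaling, 2 without WT 1, 3 without WT 3 and 3 without KO 3 and KO 5. Both genes called lower were regulatory subunits that bring protein phosphatase 1 to eIF2: Ppp1r15a (GADD34), which Atf4 and Ddit3 are known to induce, fell 1.71-fold from 11.97, 11.94, 11.86 and 11.90 in WT to 10.67, 11.43, 10.92 and 11.55 in KO (−0.78, SE 0.19, adjusted p = 0.0089), and Ppp1r15b (CReP), the constitutive one, fell 1.25-fold (−0.32, adjusted p = 0.04). The Ppp1r15b call was lost in 7 of the 8 fits that left out 1 array, all but that without KO 4 (highest adjusted p = 0.1), and under quantile normalization (adjusted p = 0.19) and poly-A control scaling (0.16). Under hybridisation control scaling Ppp1r15a and Ppp1r15b read −0.03, not called, and 0.42, called higher. Ppp1r15a as deposited thus went against the targets in direction, although KO 3 and KO 5 were again its higher KO arrays. Gcn1 (Gcn1l1 on the array), the partner that GCN2 needs for activation, rose 2.39-fold (1.26, SE 0.14, adjusted p = 0.00014), and Nck1, an adaptor, was called at 1.49-fold (0.57, adjusted p = 0.039) with an overlap between groups. The Nck1 call was lost in 6 of the 8 fits that left out 1 array (all but those without WT 2 or KO 2, adjusted p up to 0.098), under quantile normalization (adjusted p = 0.12), 75th percentile scaling (0.21) and poly-A control scaling (0.11).

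The subunits of eIF2 and of its exchange factor eIF2B had the lowest median: of 7 tested 1 was called higher and 2 lower (median 0.05). Eif2b5, the catalytic subunit of eIF2B, rose 1.48-fold (0.56, adjusted p = 0.021), a call lost without WT 1 (0.44) or KO 2 (0.47), under 75th percentile scaling (0.30, adjusted p = 0.17) and under poly-A control scaling (0.48, adjusted p = 0.16), and Eif2s3x and Eif2s2, the gamma and beta subunits of eIF2, fell 1.49-fold (−0.58, adjusted p = 0.0051) and 1.33-fold (−0.41, adjusted p = 0.0055). For Eif2s3x the highest WT array was WT 1, the one with high Xist (13.58, with 13.11, 13.24 and 13.11 in WT 2 to WT 4). Its call held in all 8 fits that left out 1 array, and the part of embryo sex in its size was not tested. Under quantile normalization the calls of Eif2s2 (0.01) and Eif2s3x (−0.29) were lost, and under hybridisation control scaling Eif2s2 was called higher (0.33).

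**Figure D5:**
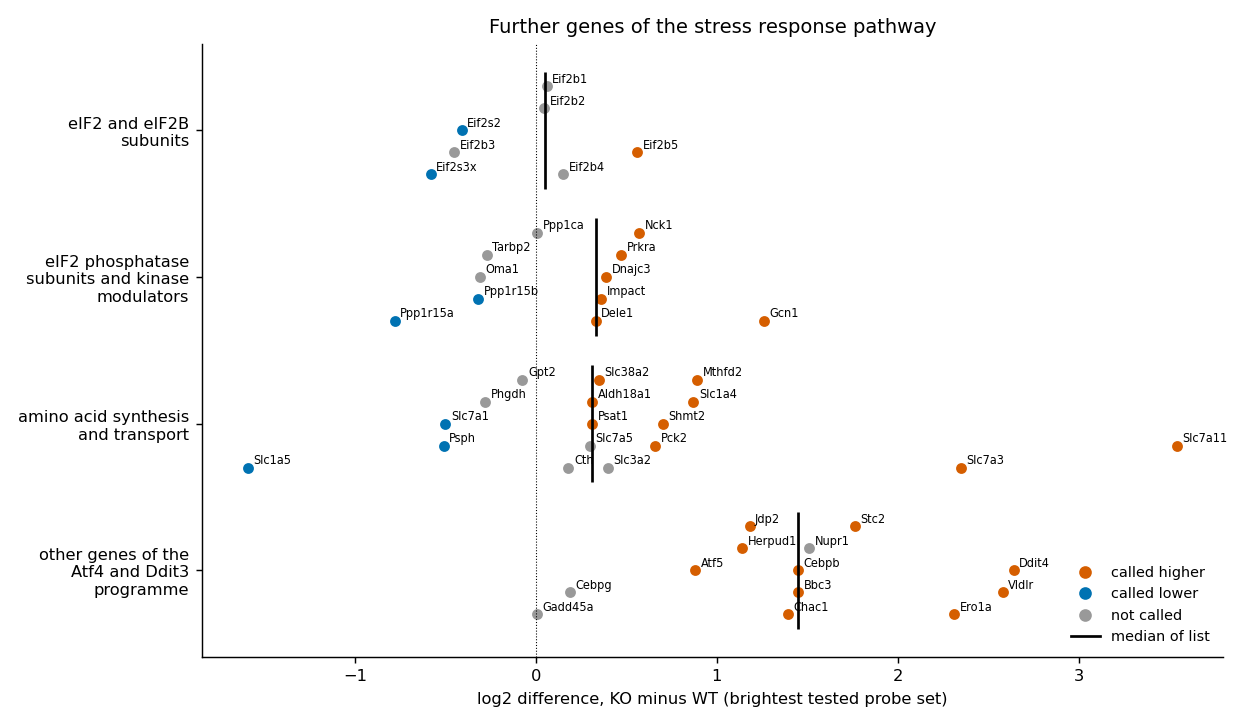
KO minus WT in log2 for the 48 tested genes of 4 pathway lists outside the members, on the brightest probe set, coloured by call, with the list median as a bar. Medians are 0.05, 0.33, 0.31 and 1.45 from top to bottom, and Ppp1r15a and Slc1a5 lie to the left of 0.

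The cytosolic heat shock genes, a separate arm of the stress response, were mixed: 2 of 8 were called higher and 2 lower. These counts are near the shares of all genes on the brightest probe set (25.6% higher and 21.0% lower). Hspa1b rose 21.7-fold and Hspa1a, its near-identical copy whose probes may not tell the pair apart, at least 13.4-fold, while Hsp90aa1 (−0.57) and Hspa8 (−0.49) fell as deposited and lost their calls under quantile normalization (−0.09 and 0.01).

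The genes closest to Trib3 (1456225_x_at) over the 8 arrays were Clcn3 (r = 0.997), Slc35a5 (0.996), Rbm39 (0.995), Sparc (0.995) and Arhgap5 (0.995), with differences of 1.82, 0.99, 1.12, 1.87 and 0.94. None of them is on the pathway lists. As for Eif2ak1, these r values share the gap between the WT and KO arrays and are given as descriptions. Sparc is a matrix protein made by stellate cells and endothelium, and 5 of 7 stellate and mesenchymal markers (median 0.82) and 5 of 7 endothelial markers (median 0.63) were called higher in KO, with summed signals of 8685 to 9193 in WT and 11297 to 18365 in KO for the former and of 4882 to 5368 and 6075 to 7451 for the latter. The stellate count became 3 under 75th percentile scaling and without KO 3 and KO 5 (Col3a1 and Lrat lost). The endothelial count became 3 under quantile normalization and without WT 3, KO 3, KO 4 or both KO 3 and KO 5 (Emcn and Tek lost), and 2 under 75th percentile and poly-A control scaling (Stab2 lost too). Hepatocyte markers, which with the erythroid ones define this tissue, were 5 of 6 called lower (median −0.65) with summed signals of 124068 to 158517 in KO against 202102 to 227008 in WT, and all 5 calls were lost under quantile normalization. Under hybridisation control scaling 0 hepatocyte markers were called lower and 1, Fgb, was called higher. Of the remaining lists, 3 of 5 megakaryocyte markers (median 0.39) and 2 of 7 granulocyte markers (median 0.62) were called higher, and 1 of 8 macrophage markers (median −0.34) lower. Over all genes, 25.6% were called higher and 21.0% lower on the brightest probe set. The part of these shifts in the stress response values was not tested.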

How the data were processed

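The authors processed the arrays with the standard MAS5.0 method, and the deposited values are linear intensities, scaled per array to a trimmed mean of 500 (2% trimmed). The array version that the study's methods name holds fewer probe sets than the 45101 deposited. Log2 was taken without a pseudocount, control probe sets were left out, and 4 WT and 4 KO arrays were compared by genotype with limma 3.58.1 (lmFit, eBayes, R 4.3.3) where either group's mean exceeded a signal of 100, with Benjamini-Hochberg adjustment over 23379 probe sets (adjusted p under 0.05). Recovery of known changes was checked on simulated data. Symbols came from the platform annotation, which can be old. No detection calls were used, and the number of arrays limits precision. A gene is read on its brightest tested probe set where 1 value is given. Named beside the members are Klf1, the 2 largest called rises and falls of each list by fitted difference (also where a group lay below the signal minimum), and the 5 genes most correlated with Eif2ak1 and with Trib3; others were named after their values were seen. The members and lists were chosen with earlier results of these data known. Alternatives changed the scaling, pseudocount (16, 64), filter, test, pairing and arrays used.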

Additional observations from a re-analysis of the deposited data

Results flagged for a closer look

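Among 40 groups of 4 arrays of the tested member probe sets, 1 held an array far from the rest: Sesn2 1425139_at read 4.68 in WT 2 and 6.10 to 6.20 in the other WT arrays, so that the gap to the nearest array was 0.932 of the range of the group, above the 95% limit of Dixon's test. Chance sets apart about 1 in 20 such groups. Without WT 2 the KO minus WT difference of this probe set was the lowest of those with single arrays left out, 1.23, and it was still called.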

How the results depend on the processing

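As deposited, 7 member genes were called higher only, 1 in both directions and 0 lower only, and the 48 pathway genes gave 26 called higher and 7 lower. Pathway counts moved to 16 higher and 12 lower under 75th percentile scaling, 42 and 1 under hybridisation control scaling (where all 10 members were called higher only and 0 in both directions), 17 higher with no filter, 16 higher with the methods' t-test after Benjamini-Hochberg adjustment, 12 lower without KO 2 and KO 4, and 3 lower with the mean of a gene's probe sets. With single arrays left out they ran from 18 to 26 higher and from 6 to 8 lower, member genes called higher only stayed at 7, those called both ways at 1 and lower only at 0, and targets exceeded kinases by 1.15 to 1.66. Directions turned mostly on probe sets that were not called. Quantile normalization gave −0.11 for Eif2ak4 1421389_a_at and 0.19 for Atf4 1448135_at. The 75th percentile gave −0.24 for Eif2ak1 1421900_at, −0.13 for Eif2ak4 1421389_a_at, −0.04 for Atf4 1438992_x_at, and −0.15 and −0.034 for Asns 1433966_x_at and 1451095_at. Hybridisation controls gave 0.40 for Eif2ak1 1421901_at and 0.67 for Atf4 1448135_at, and poly-A controls −0.06 for Eif2ak1 1421900_at. With single arrays left out Eif2ak4 1421389_a_at ran from −0.016 (without KO 3) to 0.33, Eif2ak1 1421900_at from −0.0082 (without KO 4) to 0.055 and Atf4 1448135_at from −0.19 to 0.0039 (without KO 4). Without KO 3 and KO 5 Eif2ak4 1421389_a_at read −0.21 and Atf4 1438992_x_at −0.24, and without KO 2 and KO 4 Eif2ak1 1421900_at read −0.026 and Atf4 1448135_at 0.10. The cause was not tested. Eif2ak4 1443235_at and Sesn2 1425139_at had no value with the minimum at a signal of 200 or set on the mean over all arrays, and Eif2ak4 then had no called probe set. The share of calls that were higher was 66.0% as deposited, 49.3% after quantile normalization, 41.0% by the 75th percentile and 97.2% by the hybridisation controls.

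Replicate numbers 2, 3 and 4 occur in both groups. Deviations of same-numbered arrays from their group means correlated at −0.000836, −0.0821 and −0.0272, so the values showed no sign of pairing by number. A pairing that leaves no such trace across the array, as by litter, cannot be told from these correlations. With the replicate block on these numbers the pathway counts were 16 higher and 4 lower, against 17 and 6 with the same arrays and no block, a setting added after seeing the data. The block took the calls of Eif2ak1 1421901_at (−0.40) and Eif2ak2 1422005_at (0.67), while that of Sesn2 1451599_at (1.74) was lost on these arrays with and without it. On all tested probe sets 7780 were called with the block and 9714 with the same arrays without it.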
